A study of Mus musculus with 6 samples.

Results

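Chondroitin sulfate is a long sugar chain carried by aggrecan and other proteoglycans of cartilage, and its sulfate groups hold the water that lets cartilage resist load. Chains grow in the Golgi: a first N-acetylgalactosamine is set on a short linker, polymerases add alternating glucuronic acid and N-acetylgalactosamine, and sulfotransferases add sulfate from the donor PAPS. Sulfate must be carried into the cell and UDP-sugars across membranes within it, and chondrocytes depend heavily on both. Described here are 10 genes of this route, chosen by name: Csgalnact1 and Csgalnact2 (chain start), Chsy1, Chsy3 and Chpf (chain growth), Chst11 and Chst3 (sulfation), and Slc26a2, Papss2 and Slc35d1 (supply of sulfate, PAPS and UDP-sugars). All 10 had 1 entry each among the 43496 entries of the deposited table, and all 10 had a mean of at least 1 FPKM (fragments per kilobase of transcript, scaled to library size), the level asked for in testing.

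The RNA came from the cranial base of C57BL/6J mouse embryos at E15.5, a stage when this floor of the skull is still largely cartilage. The embryos were 3 Memo1 mutants, which carried an ENU (N-ethyl-N-nitrosourea) allele of Memo1, and 3 controls, with 1 library each. Neither the zygosity of the allele nor the genotype of the controls at Memo1 is given in the labels, and the allele is not stated to be limited to any cell type. All groups are of the same strain and stage. Mutant 1 and control 1 share the first word of their titles, as do mutant 3 and controls 2 and 3, while mutant 2 has its own, and the labels do not say what the word marks. The comparison asks how expression differs between mutant and control cranial base.

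The tissue label was checked against 14 genes of chondrocytes, and all 14 were above 0 in every library. Their summed level was 6680 to 7384 FPKM in mutants, against 4390 to 5957 FPKM in controls, so the groups did not overlap. Summed over 8 osteoblast genes the level was 1022 to 1504 FPKM in mutants, against 1852 to 2678 FPKM in controls. Summed over 8 genes of epithelium it was 377 to 419 FPKM in mutants, against 688 to 699 FPKM in controls. Summed over 5 genes of hypertrophic chondrocytes it was 659 to 881 FPKM in mutants, against 1055 to 1354 FPKM in controls, the opposite direction to the chondrocyte sum. Of these 5 genes, 2 were lower in every mutant than in every control and 1 was higher. Ibsp counts in both this sum and that of osteoblasts. The groups also did not overlap for the sums of fat cell genes (20.7 to 80.04 FPKM in mutants, against 117 to 153 FPKM in controls), skeletal muscle genes (1996 to 2673 FPKM in mutants, against 3078 to 4293 FPKM in controls) and macrophage genes (132 to 169 FPKM in mutants, against 115 to 119 FPKM in controls). Gene by gene, every mutant exceeded every control in 10 of 14 chondrocyte and 1 of 4 macrophage genes, beside 8.98% of all entries. Every mutant was lower in 6 of 8 osteoblast and 5 of 8 epithelium genes, beside 11.9%. The same held for 3 of 5 skeletal muscle and 6 of 6 fat cell genes, but 4 fat cell genes were at 0 in some library. The sums of neuron, endothelium and erythroid genes overlapped between groups. Mutant 1 stood apart: 30811 entries were listed at 0 there, against 19787 to 20594 in the other 5 libraries, and 823 entries above 5 FPKM in all of those were at 0 in mutant 1. Relative depth, read from the steps between low values, was 117% and 152% of that of control 1 in mutants 2 and 3, and 80.2% and 93.4% in controls 2 and 3. Mutant 1 had no usable steps. Xist stood at 113.6 FPKM in mutant 3, with no more than 0.0942 FPKM elsewhere, so mutant 3 also differed from the rest in sex. Memo1 itself was 25.4, 20.1 and 22.2 FPKM in mutants 1, 2 and 3, against 19.1, 23.1 and 21.9 FPKM in controls 1, 2 and 3, which does not check the labels, because a base change need not alter the level of an mRNA. In this bulk RNA, fewer cells of a type and less RNA per cell cannot be told apart.

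The 10 genes spanned a wide range of levels, and in the controls each gene kept its own place. FPKM are per transcript length, so genes can be set side by side. In controls Chpf was the highest, at 51.6 to 65.0 FPKM, followed by Papss2 at 45.7 to 46.3 FPKM, Chst11 at 30.0 to 33.9 FPKM and Chsy1 at 27.7 to 29.7 FPKM. Csgalnact1 lay in the middle at 14.6 to 17.6 FPKM. Slc26a2, Slc35d1, Csgalnact2 and Chsy3 lay between 5.17 and 11.4 FPKM, and Chst3 was the lowest at 2.68 to 3.11 FPKM. The ranges of neighbours in this order did not overlap in the 3 controls. No mutant kept this whole order. Papss2 exceeded Chpf in mutant 3, and Slc35d1 exceeded Slc26a2 in mutant 2. In mutant 1 Chsy1 exceeded Chst11 and both exceeded Papss2, while Csgalnact2 exceeded Slc35d1 and Chst3 exceeded Chsy3. Summed over the 10 genes, the level was 264, 232 and 270.1 FPKM in mutants 1, 2 and 3, against 211, 208 and 227 FPKM in controls 1, 2 and 3. Each mutant sum thus lay above each control sum, with means of 255 ± 20.1 FPKM in mutants and 215 ± 10.3 FPKM in controls (SD, n = 3 each). Mutant 2 exceeded control 3 only narrowly. Chpf and Papss2, the highest genes in controls, weigh most in the control sums, and each overlapped between the groups. Over all entries the FPKM also summed highest in mutant 1, to 567601, against 492572 to 520337 elsewhere.

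**Figure D1:**
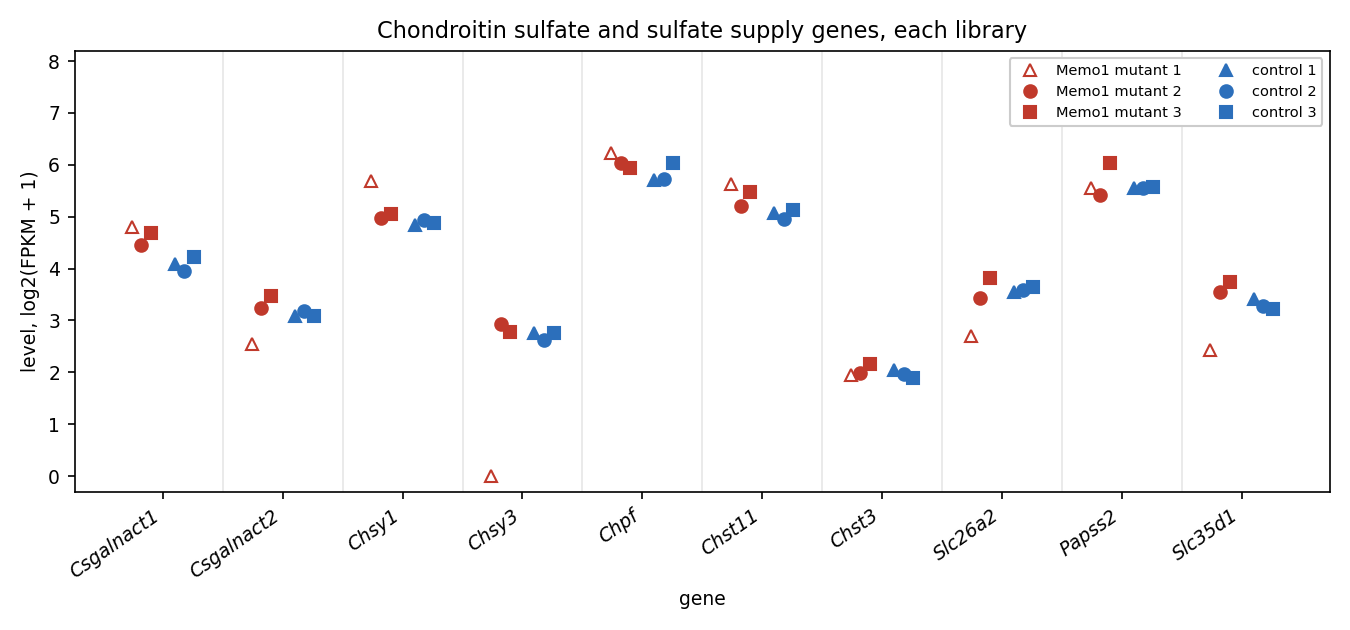
Level of each of the 10 genes in each library as log2(FPKM + 1), with Memo1 mutants in red on the left and controls in blue on the right of each gene, 1 point a library. Mutant 1 (open triangles) is the highest of the mutants for Csgalnact1, Chsy1, Chpf and Chst11 and the lowest for Csgalnact2, Chsy3, Chst3, Slc26a2 and Slc35d1, with Chsy3 at 0.

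Promoter sequence from RefSeq tables of GRCm38.p6 was used for 7 of the 10 genes, matched by symbol. Any windows of the 10 genes on 1 chromosome were left out, while the count over all windows kept that chromosome. Shown are 4 windows, so that the synthase, its partner and both sulfotransferases can be compared. Each is the 250 bases before the gene start, read 5′ to 3′ on the gene's strand. Chsy1 is at chr7:66109242-66109491 on the plus strand, Chpf at chr1:75479472-75479721 on the minus strand, Chst11 at chr10:82985247-82985496 on the plus strand and Chst3 at chr10:60219261-60219510 on the minus strand. Capitals mark 4 motifs of 6 letters, searched on both strands and chosen after the sequences were seen: ACAAAG and ACAATG, which SOX factors can bind, TGACGT, the core of cAMP response elements, and the E-box CACGTG.
Chsy1: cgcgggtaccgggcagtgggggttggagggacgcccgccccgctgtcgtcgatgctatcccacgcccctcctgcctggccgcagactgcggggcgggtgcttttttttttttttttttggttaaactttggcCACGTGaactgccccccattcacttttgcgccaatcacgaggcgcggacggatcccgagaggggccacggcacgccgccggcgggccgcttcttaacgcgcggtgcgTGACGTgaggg
Chpf: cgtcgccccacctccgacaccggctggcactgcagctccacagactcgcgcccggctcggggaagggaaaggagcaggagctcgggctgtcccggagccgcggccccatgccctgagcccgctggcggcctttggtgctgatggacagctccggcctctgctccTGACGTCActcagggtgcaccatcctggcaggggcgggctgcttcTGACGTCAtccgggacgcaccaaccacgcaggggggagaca
Chst11: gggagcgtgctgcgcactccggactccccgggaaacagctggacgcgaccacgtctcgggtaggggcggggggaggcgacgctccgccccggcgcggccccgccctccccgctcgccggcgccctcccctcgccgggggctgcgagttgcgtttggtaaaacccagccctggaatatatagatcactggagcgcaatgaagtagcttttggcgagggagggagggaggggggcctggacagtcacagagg
Chst3: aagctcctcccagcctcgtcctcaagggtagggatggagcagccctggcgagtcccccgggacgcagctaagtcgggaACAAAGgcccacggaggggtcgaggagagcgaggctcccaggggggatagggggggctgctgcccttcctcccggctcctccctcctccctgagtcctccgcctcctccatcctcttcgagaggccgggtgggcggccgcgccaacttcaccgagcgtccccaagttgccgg
All 4 windows were rich in G and C (65.6% in Chsy1, 70.4% in Chpf, 70.0% in Chst11 and 69.6% in Chst3). Chpf held TGACGT in a palindrome at 2 places, so that matches on both strands overlap there, beginning 86 and 84, and 41 and 39, bases before the start. Chsy1 held it once, 11 bases before the start, and CACGTG 118 bases before it. Chst3 held ACAAAG 172 bases before the start, and Chst11 held none of the 4 motifs in this window. The windows not printed, of Csgalnact2, Papss2 and Slc35d1, held none of the 4 motifs. Of all 9 windows of the 7 genes, 2 thus held TGACGT, 1 CACGTG, 1 ACAAAG and 0 ACAATG. Among all 32851 windows of this length 6.47% held TGACGT, 6.02% CACGTG, 16.5% ACAAAG and 10.7% ACAATG. A match is a description of these letters and says nothing of binding.

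The chain-starting enzyme Csgalnact1 had the largest difference among the genes that were above 0 in every library, and it was higher in every mutant. Csgalnact1 and Csgalnact2 both add the first N-acetylgalactosamine to the linker, and in mice loss of Csgalnact1 reduces cartilage chondroitin sulfate. Csgalnact1 was 26.7, 21.1 and 24.8 FPKM in mutants 1, 2 and 3, against 15.9, 14.6 and 17.6 FPKM in controls 1, 2 and 3. The groups did not overlap, and the ratio of the means was 1.51 (24.2 ± 2.87 FPKM in mutants and 16.0 ± 1.54 FPKM in controls, SD, n = 3 each). The difference in log2(FPKM + 1), a scale that makes the changes of low genes look smaller, was 0.56 (SE 0.15, 95% interval 0.20 to 0.92). It did not pass when adjusted over all 15710 entries tested (limma Benjamini-Hochberg adjusted p = 0.695). In the authors' deposited table its p-value was 0.0102 and its q-value 0.28. The 2 genes whose deviations from their own mean were most like those of Csgalnact1, among 10250 compared over the 6 libraries, were of cartilage: Col27a1, a collagen of cartilage, and Lect1, the glycoprotein chondromodulin. Their root mean square difference from Csgalnact1 was 0.062 and 0.069 on the log2(FPKM + 1) scale, and Rab43, a small GTPase, came next at 0.075. Col27a1 was 89.8, 63.5 and 77.3 FPKM in mutants 1, 2 and 3, against 47.7, 47.7 and 56.7 FPKM in controls 1, 2 and 3. Having been picked by likeness to Csgalnact1 over the same libraries, Col27a1 was bound to show a like difference. The summed level of the chondrocyte genes given above was higher in mutants as well. The sums for hypertrophic chondrocytes, osteoblasts, epithelium, fat cells and skeletal muscle were lower and that for macrophages higher. The part of these cell types in this result was not tested.

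Csgalnact2, the partner at the same step, was 4.82, 8.40 and 10.1 FPKM in mutants 1, 2 and 3, against 7.51, 8.09 and 7.44 FPKM in controls 1, 2 and 3. Mutant 1 was the lowest of all 6 and mutants 2 and 3 the highest, so the groups overlapped (log2 difference -0.04, SE 0.28, limma adjusted p = 0.95). Without mutant 1 the log2 difference was 0.24 (SE 0.11, limma adjusted p = 0.355). The ratio of Csgalnact1 to Csgalnact2 was 5.55, 2.51 and 2.46 in mutants 1, 2 and 3, against 2.12, 1.80 and 2.37 in controls 1, 2 and 3. Each mutant lay above each control (exact permutation test on the log2 ratio, two-sided, p = 0.1, the smallest that 3 against 3 can give). Without mutant 1 the same exact permutation test gave p = 0.2, where 0.1 is the smallest possible.

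Of the chain-growth genes Chsy1 was higher in every mutant, by a margin that rested mostly on mutant 1. Chsy1 is the chondroitin synthase that adds both sugars, and its loss in humans causes a syndrome with short digits. It was 50.4, 30.4 and 32.3 FPKM in mutants 1, 2 and 3, against 27.7, 29.7 and 28.6 FPKM in controls 1, 2 and 3. Mutant 2 exceeded control 2, the highest control, only narrowly. The log2 difference was 0.35 (SE 0.21, 95% interval -0.17 to 0.87, limma adjusted p = 0.695), and 0.13 without mutant 1 (SE 0.078, limma adjusted p = 0.457). Chpf, the polymerizing factor that works in complex with a synthase, was 74.4, 64.7 and 60.5 FPKM in mutants 1, 2 and 3, against 51.6, 52.2 and 65.0 FPKM in controls 1, 2 and 3. Control 3 lay above mutants 2 and 3, so the groups overlapped (log2 difference 0.24, SE 0.14, limma adjusted p = 0.695). The ratio of Chpf to its relative Chpf2 was nearly constant, at 2.42, 2.47 and 2.39 in mutants 1, 2 and 3, against 2.31, 2.50 and 2.34 in controls 1, 2 and 3.

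Chsy3, a second synthase, was listed at 0 in mutant 1, where many genes of its level were at 0. It was 6.62 and 5.83 FPKM in mutants 2 and 3, against 5.76, 5.17 and 5.75 FPKM in controls 1, 2 and 3. Mutants 2 and 3 lay just above all controls. The log2 difference was -0.81 with all 6 libraries (SE 0.82, limma adjusted p = 0.697) and 0.14 without mutant 1 (SE 0.11, limma adjusted p = 0.575). With mutant 1 at 0 its size is set by the pseudocount, and at a pseudocount of 0.1 in place of 1 it was -1.83 (limma adjusted p = 0.676). Without mutant 1 the ratio of Chsy1 to Chsy3 was 4.60 and 5.54 in mutants 2 and 3, against 4.81, 5.74 and 4.97 in controls 1, 2 and 3, so the groups overlapped.

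Of the sulfotransferases, Chst11 was higher in every mutant and Chst3 was not, and their difference was tested through their ratio. Chst11 sulfates N-acetylgalactosamine at position 4, the main form in embryonic cartilage, and mice without it have a severe chondrodysplasia. It was 48.5, 36.1 and 43.3 FPKM in mutants 1, 2 and 3, against 32.6, 30.0 and 33.9 FPKM in controls 1, 2 and 3. The groups did not overlap, and the ratio of the means was 1.32 (42.6 ± 6.21 FPKM in mutants and 32.2 ± 1.98 FPKM in controls, SD, n = 3 each). The log2 difference was 0.39 (SE 0.14, 95% interval 0.04 to 0.73, limma adjusted p = 0.695), and 0.29 without mutant 1 (SE 0.11, limma adjusted p = 0.248). Chst3, which sulfates position 6 and whose loss in humans causes a dysplasia with joint dislocations, was 2.88, 2.96 and 3.48 FPKM in mutants 1, 2 and 3, against 3.11, 2.92 and 2.68 FPKM in controls 1, 2 and 3. Its groups overlapped (log2 difference 0.07, SE 0.24, 95% interval -0.52 to 0.66, limma adjusted p = 0.885). The ratio of Chst11 to Chst3 was 16.8, 12.2 and 12.4 in mutants 1, 2 and 3, against 10.5, 10.3 and 12.6 in controls 1, 2 and 3 (exact permutation test on the log2 ratio, two-sided, p = 0.3).

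The supply genes showed no shift shared by all 3 mutants. Slc26a2, the sulfate transporter of the plasma membrane whose loss in humans causes diastrophic dysplasia, was 5.47, 9.78 and 13.0 FPKM in mutants 1, 2 and 3, against 10.7, 11.0 and 11.4 FPKM in controls 1, 2 and 3. The controls lay close together and the mutants on both sides of them. The log2 difference was -0.28 (95% interval -1.03 to 0.47, limma adjusted p = 0.701), and 0.03 without mutant 1 (95% interval -0.29 to 0.34, limma adjusted p = 0.937). Papss2, a PAPS synthase that is mutated in the brachymorphic mouse, was 46.1, 41.7 and 64.4 FPKM in mutants 1, 2 and 3, against 46.1, 45.7 and 46.3 FPKM in controls 1, 2 and 3. The controls varied by 0.687% of their mean (coefficient of variation), while mutant 3 was far above and mutant 2 below them (log2 difference 0.11, SE 0.18, limma adjusted p = 0.762). Without mutant 3 the log2 difference was -0.069 (limma adjusted p = 0.732). The ratio of Papss2 to Papss1, the other PAPS synthase, was 0.829, 0.850 and 1.23 in mutants 1, 2 and 3, against 0.978, 0.943 and 0.981 in controls 1, 2 and 3 (exact permutation test on the log2 ratio, two-sided, p = 1).

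Slc35d1 carries UDP-glucuronic acid and UDP-N-acetylgalactosamine for chain synthesis, and its loss in humans causes Schneckenbecken dysplasia. It was 4.36, 10.7 and 12.4 FPKM in mutants 1, 2 and 3, against 9.62, 8.67 and 8.35 FPKM in controls 1, 2 and 3. Mutants 2 and 3 lay above all controls and mutant 1 far below them. The log2 difference was -0.07 with all 6 libraries (SE 0.37, limma adjusted p = 0.929) and 0.34 without mutant 1 (SE 0.11, 95% interval 0.07 to 0.61, limma adjusted p = 0.211). The genes most like Slc35d1 over the libraries were Hdac1, Tpp1 and Trabd2b (root mean square difference 0.067, 0.071 and 0.074), and those most like Slc26a2 were Tmem38b, Pggt1b and Ifrd1 (0.036, 0.046 and 0.052). All 6 of these were lowest in mutant 1, as Slc35d1 and Slc26a2 were. This follows from how they were picked, by likeness to these genes over the same libraries.

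Over the 10 genes, limma called 0 with all 6 libraries and equal weights, as it did over all entries (0% of 15710). At an unadjusted p under 0.05 there were 2 of the 10, Csgalnact1 and Chst11, beside 5.12% of all entries. Array weights give a library less say the further it lies from its group. Mutant 1 got a weight of 0.0329, mutant 2 of 1.475 and mutant 3 of 2.756, against 1.739 to 2.22 in controls. Among the mutants the weighted values thus lean most on mutant 3, which also differed in sex. With these weights limma called 0 of the 10, beside 2.04% of all entries, and Csgalnact1 had the smallest adjusted p (weighted log2 difference 0.53, SE 0.10, limma adjusted p = 0.0519). Without mutant 1 it called 0 of the 10, beside 0.0446% of all entries, with 3 of the 10 at an unadjusted p under 0.05 (Csgalnact1, Chst11 and Slc35d1) beside 17% of all entries. Every mutant lay above every control in 3 of the 10 genes, beside 8.98% of all entries, and below in 0, beside 11.9%. Without mutant 1 the mutants lay above every control in 6 of the 10 genes (Csgalnact1, Csgalnact2, Chsy1, Chsy3, Chst11 and Slc35d1), beside 16.2% of all entries, and below in 0, beside 20.1%. The log2 difference was above 0 in 6 of the 10 with all libraries, beside 45.8% of all entries, and in 10 of 10 without mutant 1, beside 47% of all entries. The median over the 10 was 0.09 with all libraries and 0.16 without mutant 1, beside -0.05 and -0.01 over all entries.

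**Figure D2:**
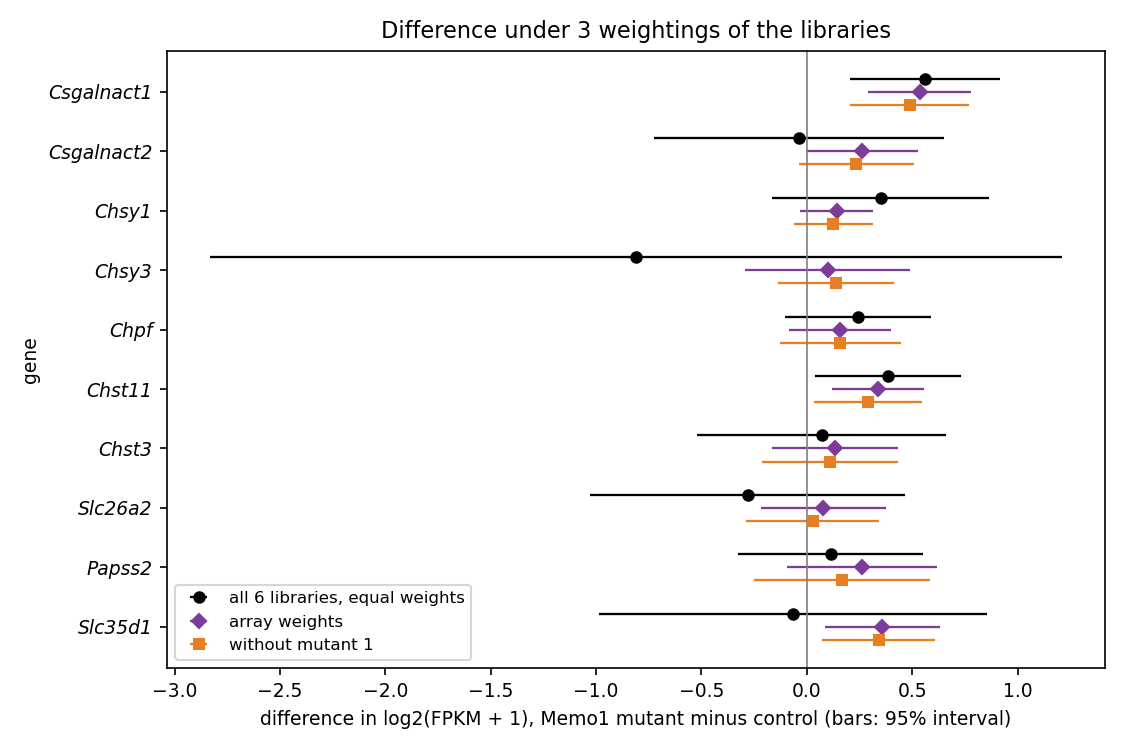
Difference in log2(FPKM + 1), Memo1 mutant minus control, for each of the 10 genes with its 95% interval, under equal weights of all 6 libraries (black), array weights (purple) and without mutant 1 (orange). The Csgalnact1 and Chst11 intervals lie above 0 under each, while Csgalnact2, Chsy3, Slc26a2 and Slc35d1 change sides with the weight of mutant 1.

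Mutant 1 differed from mutants 2 and 3 in both directions, and the size of its difference did not follow level step by step. It lay below mutants 2 and 3 for Csgalnact2, Chsy3, Chst3, Slc26a2 and Slc35d1, the 5 lowest genes in the controls, and above them for 4 of the 5 highest. Its difference from the mean of mutants 2 and 3 on the log2(FPKM + 1) scale was -2.85 for Chsy3, -1.22 for Slc35d1, -0.93 for Slc26a2 and -0.81 for Csgalnact2. It was 0.67 for Chsy1, 0.29 for Chst11, 0.25 for Chpf and 0.22 for Csgalnact1. For Chst3, the lowest gene, it was only -0.12. For Papss2 it was -0.17, with mutant 1 between mutants 2 and 3. Among all entries of 5 to 10 FPKM the median of this difference was -0.13, with quartiles at -1.41 and 0.68, and 22.6% were at 0 in mutant 1. Among those of 20 to 40 FPKM it was 0.10, with quartiles at -0.43 and 0.62. Among those of 2 to 5 FPKM, where Chst3 lies, the median was -0.67. Among those of 10 to 20 FPKM, where Slc26a2 lies, the median was 0.06. In each of these ranges the quartiles lay on both sides of 0. Of the 10 genes, 7 lay inside the quartiles of their level, and Chsy1, Chsy3 and Slc26a2 lay outside.

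**Figure D3:**
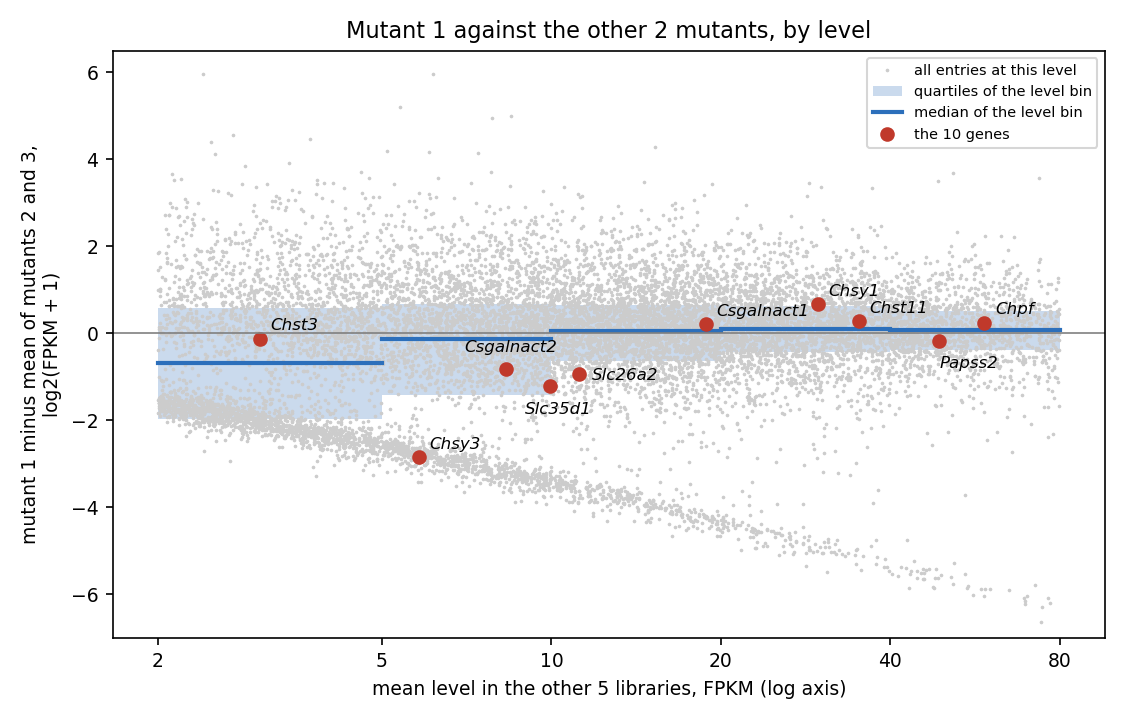
Difference between mutant 1 and the mean of mutants 2 and 3 in log2(FPKM + 1), against the mean level in the other 5 libraries in FPKM on a log axis, with all tested entries in grey, medians and quartiles of level bins in blue and the 10 genes in red. Chsy3 at -2.85 sits in the band of entries listed at 0 in mutant 1, and 7 of the 10 genes sit within the quartiles of their level.

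Around these genes lie the rest of the route, for which 49 genes in 7 groups were listed. The table held 48 of them under these symbols and 44 had a mean of at least 1 FPKM. With equal weights limma called 0 of the 44, with 5 at an unadjusted p under 0.05 (Xylt1, Gfpt2, Acan and Cspg4, higher, and Dcn, lower), beside 5.12% of all entries. With array weights it called 2 of the 44, both higher in mutants, beside 0.719% of all entries called higher, and without mutant 1 it called 0. The 2 were core proteins that carry the chains. Acan, aggrecan, the main proteoglycan of cartilage, was 142, 100.8 and 107 FPKM in mutants 1, 2 and 3, against 75.5, 72.5 and 86.0 FPKM in controls 1, 2 and 3 (weighted log2 difference 0.44, limma adjusted p = 0.0491). Cspg4, a membrane proteoglycan, was 20.2, 20.2 and 21.0 FPKM in mutants 1, 2 and 3, against 13.7, 13.2 and 14.4 FPKM in controls 1, 2 and 3 (weighted limma adjusted p = 0.0245). In both genes the groups did not overlap, and neither passed without mutant 1 (limma adjusted p = 0.126 for Acan and 0.0707 for Cspg4). Dcn, decorin, a small proteoglycan of collagen fibrils that was picked after its values were seen, was lower in every mutant, at 134, 91.2 and 118 FPKM in mutants 1, 2 and 3, against 149, 175 and 161 FPKM in controls 1, 2 and 3. Its weighted log2 difference was -0.58 (limma adjusted p = 0.0507), and without mutant 1 its limma adjusted p was 0.105. Bgn, biglycan, picked likewise, was 568, 567 and 551 FPKM in mutants 1, 2 and 3, against 642, 578 and 605 FPKM in controls 1, 2 and 3, again without overlap (weighted log2 difference -0.12, limma adjusted p = 0.36). Over the 8 core proteins tested the median log2 difference was -0.20 with all libraries, with 3 of 8 above 0. The median was -0.068 with array weights and also without mutant 1, each again with 3 of 8 above 0. Among these 8, Srgn and Ncan were listed at 0 in mutant 1.

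In each of the other groups no gene passed with array weights. Among the linker enzymes 4 of 6 were above 0 with all libraries. Xylt1, the xylosyltransferase that starts the linker, had the smallest p there, at 27.1, 17.2 and 18.4 FPKM in mutants 1, 2 and 3, against 11.5, 10.9 and 15.0 FPKM in controls 1, 2 and 3 (weighted limma adjusted p = 0.0859). Among the UDP-sugar genes 5 of 9 were above 0 with all libraries. Gfpt2, which feeds hexosamine synthesis, was 15.2, 14.4 and 16.4 FPKM in mutants 1, 2 and 3, against 11.0, 12.0 and 10.7 FPKM in controls 1, 2 and 3 (weighted limma adjusted p = 0.0622). Ugdh, which makes UDP-glucuronic acid and was picked after its values were seen, was 215, 113 and 116 FPKM in mutants 1, 2 and 3, against 94.0, 93.6 and 87.5 FPKM in controls 1, 2 and 3 (weighted limma adjusted p = 0.0654). Each of these 3 genes was higher in every mutant than in every control. With equal weights the limma adjusted p was 0.695 for each of them. Without mutant 1 the limma adjusted p was 0.177 for Xylt1, 0.138 for Gfpt2 and 0.121 for Ugdh.

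The other sulfotransferases and epimerases had 6 of 7 above 0 with all libraries, led by Chst12, another position 4 sulfotransferase, at 29.5, 33.1 and 32.2 FPKM in mutants 1, 2 and 3, against 26.9, 27.2 and 26.9 FPKM in controls 1, 2 and 3 (weighted limma adjusted p = 0.0918). For Chst12 the limma adjusted p was 0.695 with equal weights and 0.156 without mutant 1. Among the other PAPS and sulfate genes 3 of 5 were above 0, and Bpnt1, a phosphatase of PAPS breakdown products, had the smallest p (log2 difference -0.26, weighted limma adjusted p = 0.363). Among the breakdown genes 5 of 8 were above 0. Chpf2 was the only other polymerisation gene listed (log2 difference 0.21, weighted limma adjusted p = 0.581). Over all 44 genes every mutant lay above every control in 11, beside 8.98% of all entries, and below in 3 (Dcn, Bgn and the linker enzyme gene B3galt6), beside 11.9% of all entries.

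**Figure D4:**
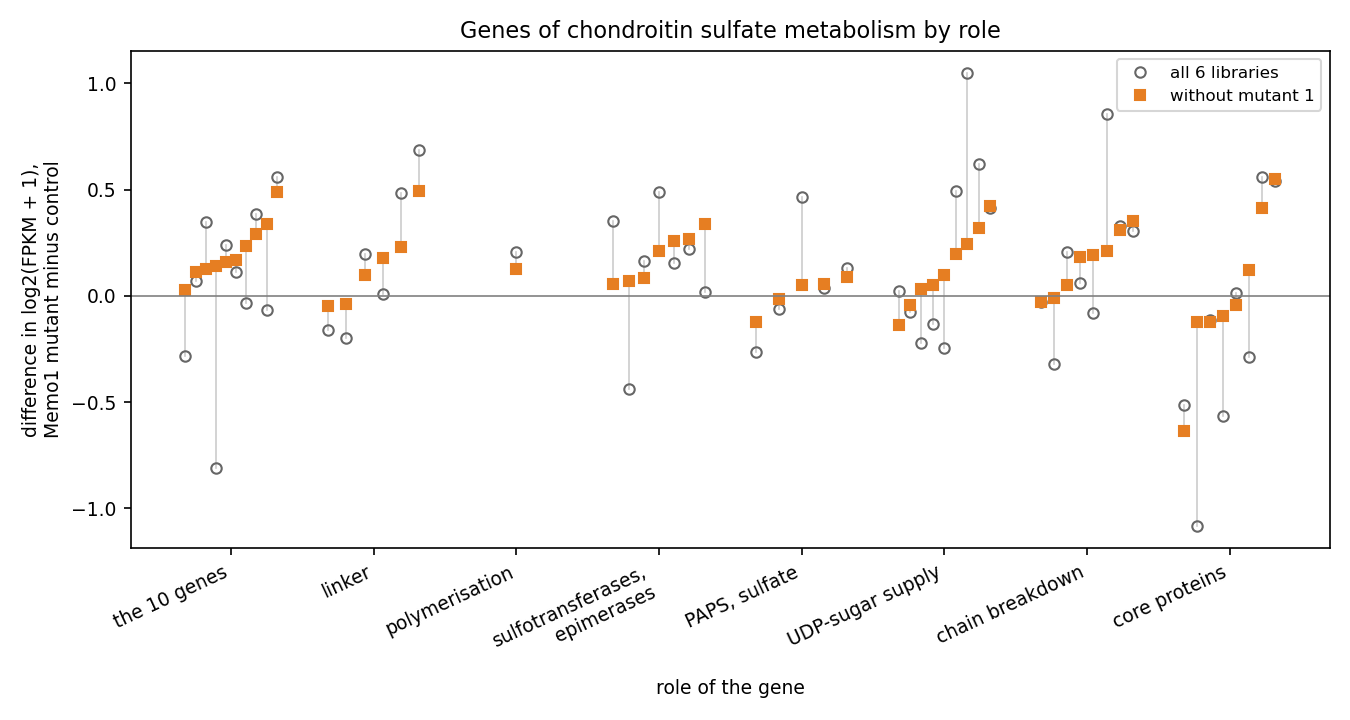
Difference in log2(FPKM + 1), Memo1 mutant minus control, for the 10 genes and the 44 other tested genes of chondroitin sulfate metabolism by role, with all 6 libraries (open circles) and without mutant 1 (orange squares), a line joining the values of 1 gene. All 10 genes lie above 0 without mutant 1, and the 8 core proteins lie on both sides.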

How the data were processed

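RNA-seq values were used from the cranial base of 3 Memo1 mutant and 3 control embryos. The authors deposited 1 table of FPKM values; per the submitters' processing notes it was made with Cufflinks (version not given) on mm9. The unit was inferred from that tool and the values. Aligner, annotation release and filters are unstated in the sources used here. The test behind the authors' deposited p-value and q-value is likewise unstated. Entries with the code 999999999 in any library (15) were left out, and none is among the 10 genes.

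Entries whose mean over the 6 libraries reached 1 FPKM entered a limma fit (3.58.1, R 4.3.3) of log2(FPKM + 1), with eBayes (trend, robust), genotype as the only term, two-sided, and Benjamini-Hochberg adjustment over 15710 entries at 0.05. The script was tested on simulated data, in which no library stood apart as mutant 1 does here. Alternatives were array weights, a pseudocount of 0.1, no filter, a filter at 5 FPKM, median-ratio scaling, plain eBayes, the first title word as a random effect (statmod 1.5.0), and each library left out. The counts of calls were also repeated with array weights without mutant 1, chosen after the data were seen, as was the omission of mutant 1 from the paralog ratios. Depth was read where control 1 lay below 0.1 FPKM, from at least 100 genes whose ratio fell within 2%.

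The 10 genes and all lists were chosen with earlier results of these data known. Named besides the 10 genes were pathway genes that passed with equal or array weights, otherwise the 1 of each list with the smallest p, and the 3 genes most like each of the 3 most variable of the 10 among those above 0 in every library, which leaves out Chsy3; the genes compared had to average 5 FPKM or more with no library at 0. Of the genes so named, 1 is not reported here. By the labels each replicate is its own embryo, numbered in accession order, and the numbers pair no samples.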

Additional observations from a re-analysis of the deposited data

How the results depend on the processing

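No paired analysis was run, since the replicate numbers follow accession order and pair no embryos. The first title word, shared as given above, was fitted as a random effect instead, which changed no direction and no call of the 10 genes. Of 128 results of the 10 genes under an alternative, 119 kept their direction and side of the threshold and 9 turned direction, none of them called. With array weights the log2 difference was 0.26 for Csgalnact2, 0.10 for Chsy3, 0.079 for Slc26a2 and 0.36 for Slc35d1. With each library left out in turn it ran from -0.23 to 0.24 for Csgalnact2, from -1.33 to 0.14 for Chsy3 (-1.83 at a pseudocount of 0.1), from -0.53 to 0.027 for Slc26a2 and from -0.32 to 0.34 for Slc35d1, with the highest value of each without mutant 1. For Papss2 it ran from -0.069 without mutant 3 to 0.24. For these turns the alternative's own construction, less or no weight on that mutant, changes the value. The adjusted p of the 10 genes ran from 0.0519 to 0.999 over the alternatives. Over all entries limma called 320 with array weights, from 0 to 7 with each library left out, 7 with array weights without mutant 1, and 0 otherwise. Of the other pathway genes it called 2 with array weights and 0 otherwise. Chsy3 and Chst3 had no value at a filter of 5 FPKM. The summed level of the 10 genes moved by less than its SD under each alternative. Mutant 1, whose depth is not known, limits all comparisons.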
